A study of Saccharomyces cerevisiae with 40 samples.

Results

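The genes described here are those with a binding event of the transcription factor (TF) Oaf1 in nitrogen-limited (N-lim) or glucose-limited (Glu-lim) chemostat cultures of Saccharomyces cerevisiae. A gene was a member if the Oaf1 table gave it a value under either condition, which held for 311 of the 7125 genes in the table; 1371 genes had an event of any of the 5 TFs of the study (Ino2, Ino4, Hap1, Oaf1, and Pip2) under any of its 4 conditions. Of the 311 genes, 98 were listed under both conditions, 66 at N-lim only, and 147 at Glu-lim only. Binding was measured by ChIP-exo, in which DNA cross-linked to the tagged TF is trimmed by lambda exonuclease up to the protein, so that an event is placed to within a few bases. The 40 libraries are duplicates of each TF and condition, and both groups used here came from 1 kind of strain, OAF1-TAP, made from CEN.PK 113-5D with a CBP-ProtA tag at the C terminus of Oaf1. N-lim medium held 6% (w/v) glucose and left nitrogen limiting, so that the cells fermented, and Glu-lim medium held 0.75% (w/v) glucose, on which the cells respired. Values of the same strain from ethanol-limited medium (Et-lim; 0.5% ethanol, respiratory) and from medium with 1% glucose under low oxygen (Ox,Glu-lim; fermentative; glucose as in the sample labels, while the study's methods give the same amount as for Glu-lim) are set beside them where stated. The study's methods also list Tween and ergosterol in the Ox,Glu-lim medium and in no other. That culture therefore differed in more than oxygen and glucose, and what these additions did to Oaf1 binding was not tested. No untagged or TF-deleted library was analysed here, so the values carry no background other than the noise level inside the signal-to-noise ratio (S/N).

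Oaf1 is a zinc cluster TF of the Gal4 type that binds CGG triplets, alone or as a heterodimer with its paralog Pip2. The heterodimer sits on oleate-responsive elements, in which a CGG and a CCG triplet are held at a set distance, and it is best known for switching on peroxisomal β-oxidation genes when fatty acids such as oleate are the carbon source. No oleate was the carbon source in either culture compared here.

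For each gene and condition, the table holds the highest event within 1200 bp of the gene, its position, its log2(S/N), and the k-mer (a short sequence word) that the event caller found beside it. Only events with log2(S/N) above 1 are listed, so a gene without a value had no event above that level and may still have had a weaker one. The duplicates of a condition were pooled into 1 value, and the depth of the libraries is unknown. The spread between replicates therefore could not be computed, no difference between the conditions was tested, and the differences below are a description of 1 pooled value against another. A difference in depth or in immunoprecipitation between the libraries cannot be told apart from a difference in binding. For shares, an exact binomial interval (95%) is given, which covers counting error alone, over genes or events that are not independent samples of a condition.

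At N-lim, Oaf1 had 164 genes (2.3% of the table) on 116 distinct events, against 245 genes (3.44%) on 171 events at Glu-lim. The 98 genes listed under both conditions (1.38% of the table) made up 59.8% of the N-lim genes (interval, 51.8 to 67.3%) and 40% of the Glu-lim genes (33.8 to 46.4%). An event between a pair of genes was often listed for both: 48 N-lim events and 74 Glu-lim events belonged to 2 genes each. When genes on the same events were merged, the 98 genes came to 68 promoters, and such genes are named together below (RGI2/VHR1). The other tables were also shorter at N-lim, where Ino2 had 133 genes (631 at Glu-lim), Ino4 166 (535), Hap1 52 (405), and Pip2 54 (124).

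The genes listed under both conditions carried higher events than those listed under 1. Over the 98 genes, the median log2(S/N) was 2.99 at N-lim and 3.84 at Glu-lim. The 66 N-lim-only genes had a median of 2.07, from 1.08 to 5.20, and the 147 Glu-lim-only genes a median of 2.46, from 1.07 to 4.86. The single-condition genes thus lay mostly in the lower part of the listed range, with a few high exceptions in each condition. The classes were set by the cutoff of 1 on these same values. Genes near it drop out of 1 condition more easily, so this order is no independent result.

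The sequences under the events are shown first, since the oleate-responsive element is the best-known binding site of Oaf1. The reference sequence within 20 bp of each event (41 bp, R64) was searched on both strands for the oleate-responsive element in a form taken from general knowledge, CGGNNNTNA or CGGNNNTNG followed after 8 to 12 bases by CCG, and counted where all of it lay inside the window. The element was found so at 19 of 116 N-lim events (16.4%; 10.2 to 24.4%) and at 23 of 171 Glu-lim events (13.5%; 8.72 to 19.5%). It occurs in 0.153% of all windows of that length that lie over 100 and up to 1200 bp upstream of protein-coding genes. These were 33 different elements. By the distance from the element to the nearest listed event, 13 lay within 20 bp of an event in both conditions, 9 at N-lim only, and 11 at Glu-lim only. The form searched first, CGGNNNT and CCG 7 to 10 bases apart, matched fewer events: 7 at N-lim (6.03%) and 9 at Glu-lim (5.26%), against 0.255% of all windows. That first form is the one the study's text cites for the heterodimer of Oaf1 and Pip2. The form used for all other element counts here was chosen after the first result had been seen. Elements of genes for fatty acid use, peroxisomes, and nitrogen or carbon metabolism were picked for print after their values had been seen, and are given 5′ to 3′ on their own strand from the S288C reference genome (R64), not from the CEN.PK cells, with the fixed letters of the element in capitals.
POX1, chrVII:107846-107868, - strand: CGGagtTtAatcaactaataCCG
FAA2, chrV:184355-184377, - strand: CGGcgtTaAagactgacggtCCG
TES1, chrX:468389-468411, + strand: CGGtgtTtAtgccgtctcttCCG
IDP3, chrXIV:614509-614531, - strand: CGGcatTaAgcatgctaaatCCG
MDH3, chrIV:316708-316730, - strand: CGGagtTaAcgccggtccggCCG
PEX6, chrXIV:22754-22777, - strand: CGGcgaTaAtcgtcaacacttCCG
PEX11, chrXV:48756-48778, - strand: CGGcatTtAtctcggagaacCCG
ICL1, chrV:287346-287368, - strand: CGGgttTtGctactcgtcatCCG
OLE1, chrVII:398025-398046, - strand: CGGagtTaGtttttggccaCCG
GLT1, chrIV:156127-156147, - strand: CGGtttTaAtgcgtcaatCCG
PUT1, chrXII:424227-424248, + strand: CGGagaTaAgacccttgccCCG
MDH2, chrXV:83270-83292, + strand: CGGcttTaGaacggctacggCCG
The elements of MDH3, OLE1, PUT1, and TES1 lay within 20 bp of the event in both conditions, that of TES1 6 bp from its Glu-lim event. Those of POX1, PEX6, PEX11, ICL1, GLT1, and MDH2 did so at N-lim only, and those of FAA2 and IDP3 at Glu-lim only. Of these genes, PEX6, PEX11, and ICL1 were not listed at Glu-lim, and FAA2 was not listed at N-lim. The Glu-lim events of POX1, GLT1, and MDH2 lay 188, 49, and 47 bp from the element, and the N-lim event of IDP3 lay 122 bp away.

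In log2(S/N), most shared promoters were lower at N-lim. Over the 98 genes, the median of N-lim minus Glu-lim was -0.67 and the SD over genes 0.96, with 24 genes higher and 74 lower at N-lim. Only 1 gene was 1 or more log2 units higher at N-lim (1.02% of the 98), and 34 were 1 or more lower (34.7%). In 36 genes the values lay within 0.5 log2 units of each other. This split depends on the scale: with each condition centred on its median over the 98 genes, whose difference was -0.85, 55 genes were higher at N-lim and 43 lower, 18 and 9 of them by 1 or more. Across the 68 promoters the values of the conditions were correlated (Pearson's r, 0.80; Spearman's rho, 0.77; a description across promoters of 1 organism measured in pooled libraries). The median difference was -0.69 for the 23 promoters with a mean below 3, -0.83 for the 32 from 3 to 5, and -0.51 for the 13 of 5 or more.

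**Figure D1:**
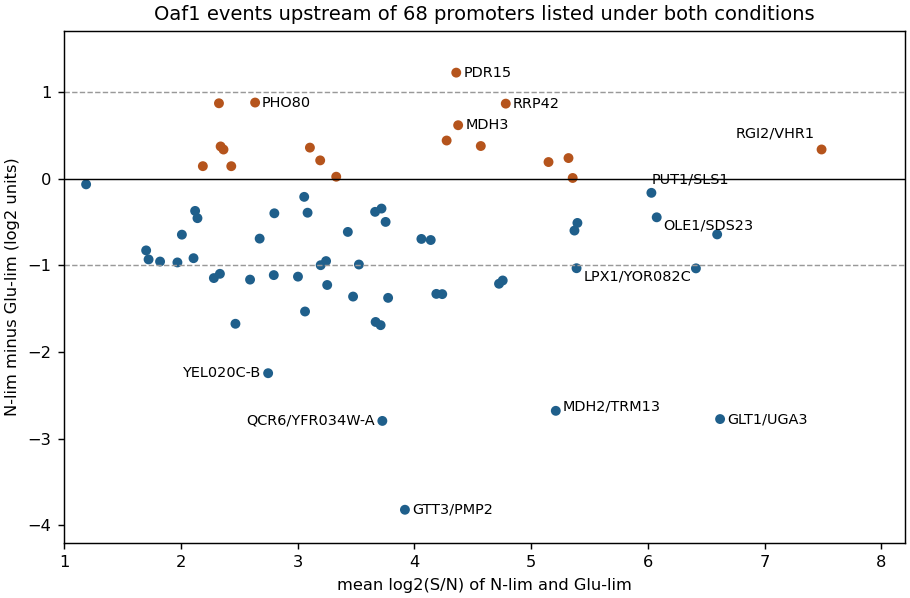
Difference in log2(S/N), N-lim minus Glu-lim (y axis, log2 units), against the mean of both conditions (x axis) for the 68 promoters listed under both. Orange points are higher and blue points lower at N-lim, and dashed lines mark 1 log2 unit; 18 promoters lie above 0 and 50 below, and the 4 lowest are GTT3/PMP2, QCR6/YFR034W-A, GLT1/UGA3, and MDH2/TRM13.

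The highest promoter of both conditions together was RGI2/VHR1, with a log2(S/N) of 7.66 at N-lim and 7.32 at Glu-lim. RGI2 is induced in respiring cells, and VHR1 encodes an activator of biotin genes. Next came GLT1/UGA3, with 5.23 at N-lim and 8.01 at Glu-lim, the highest value of Oaf1 at Glu-lim. These were followed by 2 genes of unknown function, YGR035C (6.27 at N-lim and 6.92 at Glu-lim) and YNL144C (5.89 and 6.93). The promoter of OLE1, which encodes the Δ9 fatty acid desaturase, had 5.85 at N-lim and 6.30 at Glu-lim. That of PUT1 (proline oxidase) and SLS1 (mitochondrial translation) had 5.95 at N-lim and 6.11 at Glu-lim. PDR16, for a phosphatidylinositol transfer protein, had 5.14 and 5.65, and LPX1, for a peroxisomal lipase, 4.87 and 5.91. Of these 8 promoters, 1 was more than 2 log2 units apart between the conditions, and that was GLT1/UGA3.

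The largest differences were all toward lower values at N-lim. GTT3/PMP2 had 2.01 at N-lim and 5.83 at Glu-lim, a difference of -3.82; PMP2 encodes a small proteolipid of the plasma membrane ATPase. QCR6, for a subunit of respiratory complex III, had 2.33 at N-lim and 5.12 at Glu-lim (-2.79). GLT1 encodes glutamate synthase and UGA3 the activator of γ-aminobutyrate genes, and their difference was -2.77. MDH2, the cytosolic malate dehydrogenase of gluconeogenesis, shares its promoter with TRM13 and had 3.87 at N-lim and 6.55 at Glu-lim (-2.68). YEL020C-B (1.62 and 3.87) and CWP2, for a cell wall protein (2.87 and 4.56), completed the 6 most negative promoters. At Et-lim these 6 promoters lay at 5.97, 4.82, 6.49, 6.16, 2.90, and 4.31 in the order given, and at Ox,Glu-lim GTT3/PMP2 lay at 2.32, QCR6 was not listed, and the others lay at 6.53, 5.23, 3.50, and 3.49. Since these promoters were chosen for low N-lim values, nothing is read from their lying above N-lim elsewhere.

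The 2 events of a promoter did not always lie on the same sequence. In GLT1/UGA3 the N-lim event was at position 156141 and the Glu-lim event at 156196, 55 bp apart, as the + strand over both shows (CGG and CCG triplets in capitals).
GLT1/UGA3, chrIV:156121-156216: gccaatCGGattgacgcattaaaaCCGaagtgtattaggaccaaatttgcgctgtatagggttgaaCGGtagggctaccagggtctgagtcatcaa
MDH2/TRM13, chrXV:83203-83308: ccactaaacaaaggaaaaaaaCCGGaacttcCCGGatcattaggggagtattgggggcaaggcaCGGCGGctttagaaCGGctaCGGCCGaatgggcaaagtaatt
QCR6/YFR034W-A, chrVI:225393-225436: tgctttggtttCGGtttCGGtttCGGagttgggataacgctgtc
GTT3/PMP2 at N-lim, chrV:123223-123263: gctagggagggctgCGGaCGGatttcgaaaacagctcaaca
GTT3/PMP2 at Glu-lim, chrV:123399-123439: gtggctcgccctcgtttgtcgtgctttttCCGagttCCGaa
The N-lim event of GLT1/UGA3 lay within the oleate-responsive element at 156127 to 156147, and so did the N-lim event of MDH2/TRM13 (83288) within the element at 83270 to 83292. Their Glu-lim events, at 156196 and 83223, had no element within 20 bp. The QCR6 events were 3 bp apart, at 225416 and 225413, beside a run of 3 CGG triplets, so its difference of -2.79 was measured at 1 place. The events of GTT3/PMP2 were 176 bp apart.

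Of the 68 promoters, 18 were higher at N-lim. PDR15, which encodes a multidrug ABC transporter, had 4.97 at N-lim and 3.75 at Glu-lim, a difference of 1.22, and was the only gene past 1 log2 unit. PHO80, for a cyclin of the phosphate response, had 3.07 at N-lim and 2.20 at Glu-lim, and the tRNA gene tA(UGC)O had 2.76 and 1.89. RRP42, for an exosome subunit, had 5.22 at N-lim and 4.35 at Glu-lim. MDH3, the peroxisomal malate dehydrogenase of β-oxidation, had 4.68 and 4.07, and ROX1, for the repressor of hypoxic genes, 4.50 and 4.06. The sequence of PDR15 is printed because it holds CGGAG in 3 copies over the window of its 2 events, which were 61 bp apart (+ strand, triplets in capitals).
PDR15, chrIV:1278754-1278855: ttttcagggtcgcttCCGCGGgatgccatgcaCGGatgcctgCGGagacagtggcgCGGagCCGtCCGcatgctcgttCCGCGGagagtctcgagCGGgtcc
The k-mer listed for PDR15 was CGGAG at N-lim and CGCGG at Glu-lim; the N-lim event lay at 1278835 and the Glu-lim event at 1278774.

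The genes of peroxisomal β-oxidation listed under both conditions differed by less than 1 log2 unit. Most were higher at N-lim, by 0.02 (TES1) to 0.62 (MDH3), and the largest difference, that of IDP3, was -0.99. The list, which the study chose on these samples and which is therefore no independent set, has 12 genes. Listed were 7 at N-lim and 7 at Glu-lim, 6 of them at both, beside 2.3% and 3.44% of all genes. Of those 6, 5 were higher at N-lim and 1 lower, none by 1 log2 unit, and the median difference was 0.18, beside -0.67 over all 98 genes. POX1, acyl-coenzyme A oxidase and the first enzyme of the pathway, had 2.50 at N-lim and 2.36 at Glu-lim. POT1, the thiolase of the last step, had 3.28 and 2.93. TES1 (acyl-coenzyme A thioesterase) had 3.34 and 3.32, ANT1 (the peroxisomal adenine nucleotide carrier) 3.30 and 3.09, and IDP3 (peroxisomal isocitrate dehydrogenase) 3.03 at N-lim and 4.02 at Glu-lim. FOX2, the multifunctional enzyme of the middle steps, was listed at N-lim only (2.57), and FAA2, which activates medium-chain fatty acids, at Glu-lim only (3.39). Both were listed with higher values elsewhere: FOX2 with 5.62 at Et-lim and 3.73 at Ox,Glu-lim, FAA2 with 3.90 and 5.13.

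Of the further peroxisomal and carnitine genes, most were listed under neither condition. For all genes, the listed shares were 2.3% at N-lim and 3.44% at Glu-lim. Of 15 other peroxisomal enzymes, 2 were listed at N-lim and 3 at Glu-lim, and only LPX1 at both. CTA1, the peroxisomal catalase, was listed at Glu-lim only (4.04), as was MLS1 (malate synthase; 3.59). CAT2, carnitine acetyltransferase, was listed at N-lim only (3.21), and CRC1, the carnitine carrier of mitochondria, at Glu-lim only (3.39). Among 29 peroxins, which build peroxisomes, PEX6 (2.86) and PEX11 (2.14) were listed at N-lim only and PEX5 (3.18), the import receptor, at Glu-lim only. FAA4, a long-chain acyl-coenzyme A synthetase, had 1.29 at N-lim and 2.12 at Glu-lim.

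In the POX1 promoter, shared with the clathrin gene CHC1, the level was nearly equal but the place was not. The event lay at 107866 at N-lim and at 108056 at Glu-lim, 190 bp apart, and the 2 windows of the + strand are as follows, with triplets in capitals.
POX1 at N-lim, chrVII:107846-107886: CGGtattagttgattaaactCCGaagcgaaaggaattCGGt
POX1 at Glu-lim, chrVII:108036-108076: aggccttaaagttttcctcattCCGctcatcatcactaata
The N-lim window starts with the oleate-responsive element, and its listed k-mer was CGGAG, the reverse complement of its CTCCG end. The Glu-lim window holds 1 triplet, within the listed k-mer CGGAA. The Pip2 event of POX1 at Glu-lim lay 12 bp from the N-lim event of Oaf1 and 178 bp from its Glu-lim event.

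**Figure D2:**
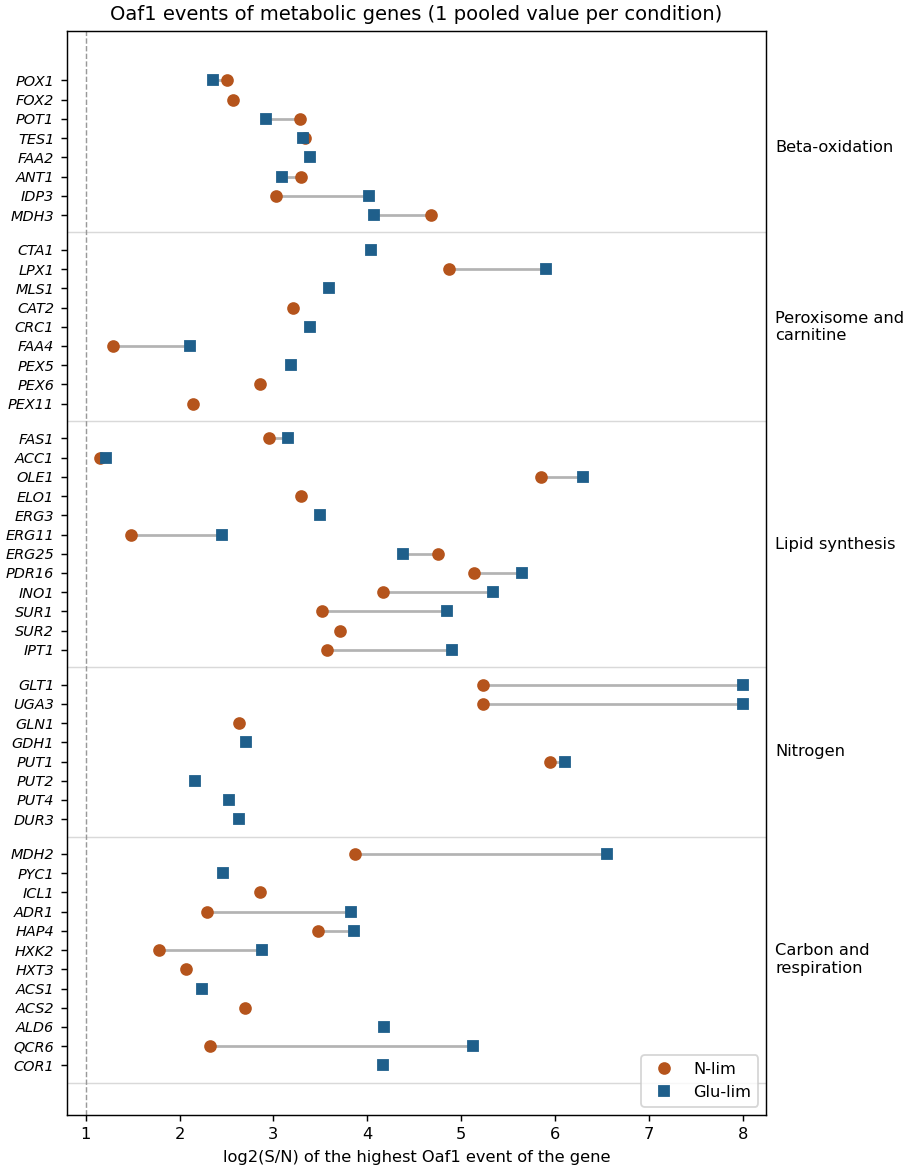
log2(S/N) of the highest Oaf1 event (x axis) for 49 genes of metabolism listed at N-lim (orange circles) or Glu-lim (blue squares), grouped by pathway; each symbol is 1 pooled value, and a gene with 1 symbol was listed under that condition only. The dashed line at 1 is the lowest level listed; MDH3 is higher at N-lim (4.68, against 4.07 at Glu-lim), and GLT1, UGA3, MDH2, and QCR6 are lower there by more than 2 log2 units.

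Among the lipid synthesis genes of the lists that were listed under both conditions, ERG25 alone was higher at N-lim. Of the 20 genes of the study's fatty acid list, 7 were listed at N-lim and 5 at Glu-lim, with a median difference of -0.14 over the 4 listed at both. FAS1, a fatty acid synthase subunit, had 2.95 at N-lim and 3.16 at Glu-lim, and ACC1, acetyl-coenzyme A carboxylase, 1.15 and 1.22. ELO1, the elongase of medium-chain fatty acids, was listed at N-lim only (3.29), at position 68923, where it was also listed at Ox,Glu-lim (4.19). Of 26 sterol genes, 3 were listed at N-lim and 4 at Glu-lim. Both lists stand beside 2.3% of all genes at N-lim and 3.44% at Glu-lim. ERG25, the sterol C4-methyl oxidase, had 4.76 at N-lim and 4.38 at Glu-lim. ERG11, lanosterol demethylase, had 1.49 at N-lim and 2.45 at Glu-lim, and ERG3, the C5 desaturase, was listed at Glu-lim only (3.50).

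The phospholipid and sphingolipid lists had 5 or fewer listed genes each, beside 2.3% of all genes at N-lim and 3.44% at Glu-lim. Of 36 phospholipid genes, 3 were listed at N-lim and 2 at Glu-lim. INO1, for inositol-3-phosphate synthase, had 4.17 at N-lim and 5.34 at Glu-lim, and the acyltransferase gene SCT1 was listed at N-lim only (1.29). Of 23 sphingolipid genes, IPT1 (3.57 at N-lim and 4.90 at Glu-lim) and SUR1 (3.52 and 4.85), which add head groups to complex sphingolipids, were both more than 1 log2 unit lower at N-lim. SUR2 (3.71) and SCS7 (1.69), the 2 hydroxylases of the pathway, were listed at N-lim only.

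Among nitrogen genes, GLT1/UGA3 and PUT1 had high events, the others were at 2.71 or below, and none of those listed at both was higher at N-lim. Of 18 genes for glutamate, glutamine, ammonium, and proline use, 4 were listed at N-lim and 6 at Glu-lim. Those at both were GLT1, UGA3, and PUT1, and the first 2 share 1 event. GLN1, glutamine synthetase, was listed at N-lim only (2.63). GDH1 (glutamate dehydrogenase; 2.71), PUT2 (2.17), and the proline permease gene PUT4 (2.52) were listed at Glu-lim only. Of 17 genes for nitrogen catabolite control and for allantoin or urea use, none was listed at N-lim and only the urea transporter gene DUR3 at Glu-lim (2.64), counts near the shares of all genes (2.3% and 3.44%).

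Central carbon genes differed by which condition listed them. Of 28 genes of the tricarboxylic acid and glyoxylate cycles, 4 were listed at N-lim and 6 at Glu-lim; ICL1, isocitrate lyase, was listed at N-lim only (2.86) and its glyoxylate cycle partner MLS1 at Glu-lim only. Of 18 gluconeogenic genes, 1 (MDH2) was listed at N-lim and 2 (MDH2 and the pyruvate carboxylase gene PYC1, 2.47) at Glu-lim. Among 23 genes of pyruvate, acetate, and ethanol metabolism, the acetyl-coenzyme A synthetase genes split: ACS2 was listed at N-lim only (2.70) and ACS1 at Glu-lim only (2.24). ALD6, for cytosolic acetaldehyde dehydrogenase, was listed at Glu-lim only (4.18), and ADH1, alcohol dehydrogenase, had 2.24 at N-lim and 3.35 at Glu-lim. Of 25 hexose genes, HXK2 (hexokinase) had 1.78 at N-lim and 2.88 at Glu-lim, HXT3, a hexose transporter, was listed at N-lim only (2.07), and MTH1 at Glu-lim only (1.16). Of 58 respiration genes, 2 were listed at N-lim and 3 at Glu-lim, counts near the shares of all genes (2.3% and 3.44%). Beside QCR6 and SLS1, COR1, another complex III subunit, was listed at Glu-lim only (4.17). The other lists of this paragraph stand beside the same shares, with few listed genes each.

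Several regulator genes were listed at Glu-lim only. The list counts below stand beside 2.3% of all genes at N-lim and 3.44% at Glu-lim. Of 23 regulators of fatty acid and alternative carbon use, 2 were listed at N-lim and 4 at Glu-lim: ADR1, the activator of peroxisomal and ethanol genes, had 2.30 at N-lim and 3.83 at Glu-lim, HAP4, of the respiratory Hap complex, 3.47 and 3.85, and USV1 (3.61) and HAP1 (2.29) were listed at Glu-lim only. Of 15 stress and nutrient-depletion regulators, 1 (ROX1) was listed at N-lim and 5 at Glu-lim, of which MOT3 (4.50), GIS1 (3.70), MSN4 (3.60), and XBP1 (2.37) were listed at Glu-lim only. PIP2 itself was listed under neither condition, but had 1.56 at Et-lim and 3.38 at Ox,Glu-lim; OAF1 was listed under none. In drug resistance, 5 of 26 genes were listed at N-lim and 4 at Glu-lim, among them PDR15 and PDR16 at both; TPO1, a polyamine exporter, had 2.01 at N-lim and 3.17 at Glu-lim, SNQ2 was listed at N-lim only (2.38), and RSB1 at Glu-lim only (2.13). EEB1, the ethanol acyltransferase of ester synthesis, had 5.36 at N-lim and 5.35 at Glu-lim. Of 138 ribosomal protein genes, 7 were listed under each condition and 2 under both, RPL13B and RPS16A on 1 event (1.93 at N-lim and 2.31 at Glu-lim).

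The highest N-lim-only event was that of TPO4/MOD5 (5.20), where TPO4 encodes a polyamine transporter. RPS26B/YER130C (4.07), SUR2, IRC7 (3.59; a cysteine β-lyase), GUA1/SKY1 (3.35; GUA1 encodes GMP synthase), and NNK1 (3.32; a protein kinase) followed. TPO4/MOD5 had 3.84 at Et-lim and 5.02 at Ox,Glu-lim, and IRC7 3.82 and 5.49, while GUA1/SKY1 was listed under neither. The highest Glu-lim-only events were those of YGR067C/YGR068W-A (4.86; a zinc finger protein gene), RNR4 (4.55; the small subunit of ribonucleotide reductase), MOT3, ALD6, COR1/ECM13, and CTA1. Of these 6, ALD6 was listed under no other condition, and only MOT3 (2.38) was listed at Ox,Glu-lim. The windows of the highest event of each class are shown for comparison (+ strand, triplets in capitals).
TPO4/MOD5 at N-lim, chrXV:836736-836776: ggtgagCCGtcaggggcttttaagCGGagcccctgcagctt
YGR067C/YGR068W-A at Glu-lim, chrVII:625289-625329: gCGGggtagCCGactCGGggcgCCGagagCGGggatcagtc
Neither window holds the oleate-responsive element. In the first, CGG and CCG triplets stand once each, and in the second they stand 5 times.

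The N-lim-only genes had the larger share at Ox,Glu-lim, and the shares at Et-lim were close. Of the 66 N-lim-only genes, 28 (42.4%; 30.3 to 55.2%) were listed at Ox,Glu-lim, against 21 of the 147 Glu-lim-only genes (14.3%; 9.07 to 21%). At Et-lim the counts were 30 of 66 (45.5%; 33.1 to 58.2%) and 64 of 147 (43.5%; 35.4 to 52.0%). Among all 7125 genes, 166 were listed at Ox,Glu-lim and 286 at Et-lim. With genes on the same events merged, the N-lim-only and Glu-lim-only shares were 44.9% and 12.5% at Ox,Glu-lim. At Et-lim they were 46.9% and 39.4%. The merged shares take the first gene of each promoter by name. CDC6/ELO1 was therefore counted as unlisted at Ox,Glu-lim, although ELO1 was listed there. Of the 98 genes listed at both, 83 were listed at Et-lim and 71 at Ox,Glu-lim, and 63 under all 4 conditions. Listed under no further condition were 27 N-lim-only genes (40.9%), 76 Glu-lim-only genes (51.7%), and 7 of the 98 (7.14%). Over the 63 genes of all 4 conditions, the median log2(S/N) was lowest at N-lim with 3.71; it was 4.31 at Et-lim, 4.14 under oxygen and glucose limitation, and 4.49 at Glu-lim. Of the 34 genes 1 or more log2 units lower at N-lim, 24 were listed under all 4 conditions, with medians of 3.57, 4.77, 4.47, and 5.33 in that order, and 19 of the 24 were higher at Ox,Glu-lim than at N-lim. These comparisons all use the N-lim values that chose the genes.

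**Figure D3:**
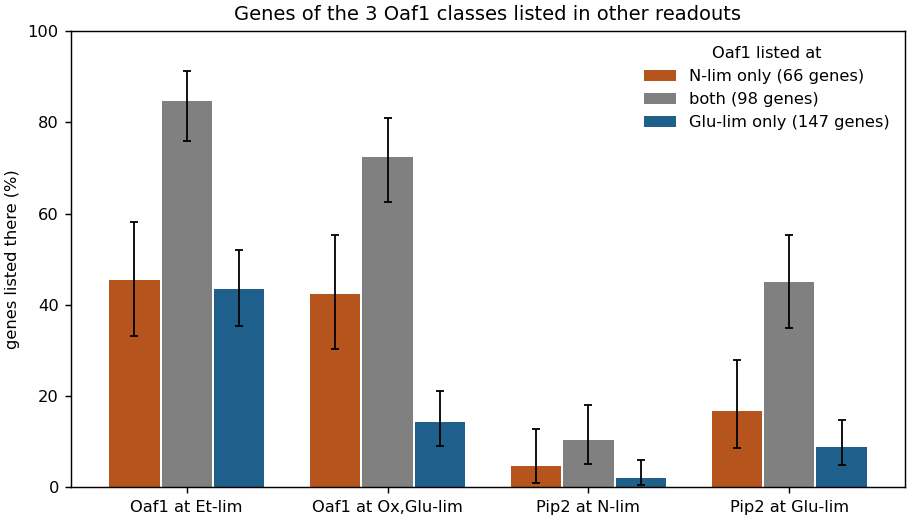
Percentage of the N-lim-only (orange), shared (gray), and Glu-lim-only (blue) Oaf1 genes that were also listed for Oaf1 under Et-lim or Ox,Glu-lim and for Pip2 at N-lim and Glu-lim; bars start at 0, and error bars are exact binomial 95% intervals (counting error). At Ox,Glu-lim the share is 42.4% for N-lim-only genes and 14.3% for Glu-lim-only genes, and for Pip2 at Glu-lim it is highest in the shared genes (44.9%).

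Pip2, the partner of Oaf1, was listed for fewer of these genes at N-lim. Of the 164 Oaf1 genes at N-lim, 13 were listed for Pip2 at N-lim, and of the 245 at Glu-lim, 57 for Pip2 at Glu-lim; the Pip2 table holds 54 genes at N-lim and 124 at Glu-lim. The Oaf1 and Pip2 events lay within 20 bp of each other in 5 of the 13 genes and in 16 of the 57. For the 9 genes listed for both TFs under both conditions (POX1, CHC1, EEB1, PUT1, VHR1, VHS1, YGR035C, YMR102C, and YNL144C), the median N-lim minus Glu-lim difference was -1.51 for Pip2 and 0.14 for Oaf1. Over all genes that each TF had under both conditions, it was -1.62 for Pip2 (23 genes) and -0.67 for Oaf1 (98 genes). The Pip2 value of the 9 genes is thus close to that of its whole table. POX1 and CHC1 share 1 event but count as 2 genes, and the Oaf1 median is their value. ELO1, without an Oaf1 event at Glu-lim, had a Pip2 event of 6.29 there. At GLT1, MDH2, and MDH3, the Pip2 event at Glu-lim lay 3 bp from the Oaf1 event at N-lim, and 58, 62, and 10 bp from the Oaf1 event at Glu-lim. EEB1 was alike, with 4 and 77 bp. Other genes differed: the distances were 3 and 1 bp at PUT1, 8 and 4 bp at YNL144C, and 74 and 85 bp at OLE1. No general rule is read from these picked genes.

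Events of shared genes were often not in the same place. No gene of the 98 had its 2 events on the same base; 49 (50%; 39.7 to 60.3%) had them within 20 bp, 6 from 21 to 50 bp, 15 from 51 to 100 bp, 22 over 100 and up to 200 bp, and 6 beyond. The median distance was 21 bp. For comparison, N-lim and Glu-lim events lay within 20 bp in 85.6% of 125 Ino2 genes, 77.6% of 143 Ino4 genes, 47.7% of 44 Hap1 genes, and 43.5% of 23 Pip2 genes. The table gives only the highest event, so a shift can mean that another of several events became the highest. Among promoters at 2 or above in both conditions, the largest shifts were those of YFL063W/YFL064C (586 bp), ADH1 (528 bp), RRP42 (482 bp), POX1/CHC1 (190 bp), and GTT3/PMP2. In the 43 genes more than 50 bp apart, the Et-lim event (37 listed) lay within 20 bp of the N-lim event in 6 and of the Glu-lim event in 15. The Ox,Glu-lim event (29 listed) lay near the N-lim event in 12 and near the Glu-lim event in 8.

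The median difference was close in genes whose events stayed within 20 bp and in the others. The 49 genes with events within 20 bp had a median difference of -0.64 (SD over genes, 0.79), and 18 of them were 1 or more lower at N-lim. The 49 genes with events farther apart had a median of -0.83 (SD, 1.12), and 16 were 1 or more lower. In both conditions the events lay upstream at like distances: the median from the gene start was 474.5 bp at N-lim and 490 bp at Glu-lim, and 64.0% (56.2 to 71.4%) and 64.1% (57.7 to 70.1%) lay within 600 bp.

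**Figure D4:**
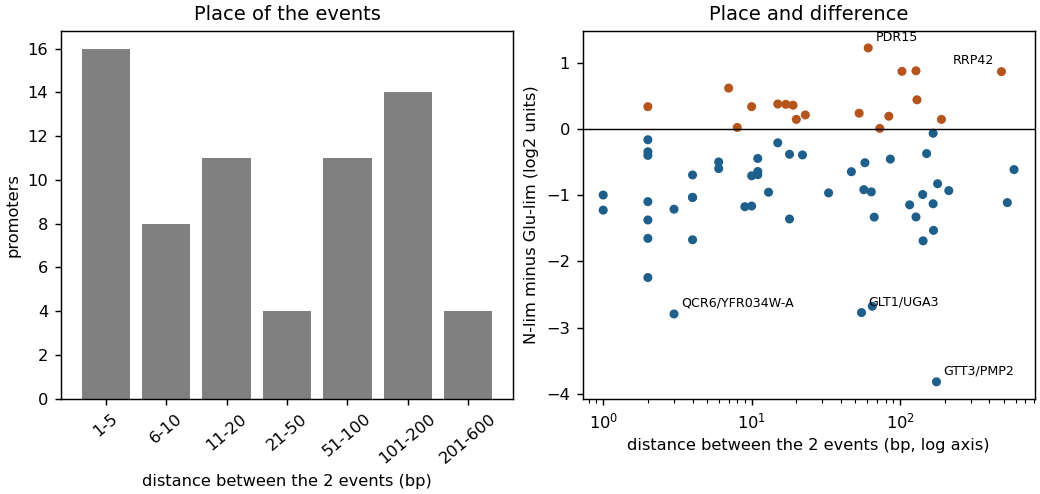
Left, number of promoters (y axis) by the distance in bp between their N-lim and Glu-lim events (x axis). Right, difference in log2(S/N), N-lim minus Glu-lim, against that distance on a log axis for the same 68 promoters, orange where higher and blue where lower at N-lim; 35 promoters lie within 20 bp, and differences below -2 occur both at 3 bp (QCR6/YFR034W-A) and at 176 bp (GTT3/PMP2).

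The k-mers listed by the caller were all 5 bases long, and every one held CGG or CCG, the zinc cluster triplet. A k-mer and its reverse complement were counted as 1. At N-lim 7 k-mers were listed, and at Glu-lim the same 7 and 10 more. CGGAG led at N-lim, with 33 of 116 events (28.4%), against 23 of 171 (13.5%) at Glu-lim. The Glu-lim count includes the event of GLT1/UGA3, where these letters do not stand within 20 bp. GCCGC led at Glu-lim with 30 events (17.5%), and CGGAA followed CGGAG with 18 (10.5%); neither was listed at N-lim at all. The letters themselves were present in both conditions: GCCGC or its reverse complement stood within 20 bp of 17.2% of N-lim and 21.6% of Glu-lim events, CGGAA in 22.4% and 23.4%, and CGGAG in 35.3% and 25.1%, against 2.72%, 4.91%, and 2.68% of all upstream windows. For these 3 k-mers the listed shares thus lay farther apart than the shares of the letters. The caller found these k-mers at these same events, CGGAG in both conditions and GCCGC and CGGAA at Glu-lim. Their excess over all upstream windows there is therefore no independent result. Of the 98 shared genes, 35 had a k-mer under both conditions, 11 of them the same one (among them HXK2, FAA4, ZWF1, and MCM1). In 20 of the 35 the events lay within 20 bp, and in 13 of these both k-mers stood within 10 bp of both events. At GLY1/IES6 this is visible in 1 window, where CCGGA was listed at N-lim and CGGAA at Glu-lim.
GLY1/IES6, chrV:69143-69185: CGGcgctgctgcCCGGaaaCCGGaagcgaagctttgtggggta
The letters CCGGAA hold both k-mers in overlap.

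Events without a listed k-mer had the higher median. At N-lim, 43 of 116 events had none, with a median log2(S/N) of 3.30, beside 2.30 for the 73 with a k-mer. At Glu-lim, 43 of 171 had none, with a median of 3.74, beside 2.51 for the other 128. Of the events at 4 or above, 15 of 21 at N-lim and 19 of 37 at Glu-lim had no k-mer, among them OLE1/SDS23, YNL144C, and LPX1 under both conditions. These events still had the triplet: CGG or CCG stood within 20 bp of 21 of 21 N-lim and 36 of 37 Glu-lim events at 4 or above, against 34.9% of all upstream windows. The longer motif CGGNNNTAA, which the study derived from these events and which is therefore no independent check, stood within 20 bp of 19.8% of N-lim events (13 to 28.3%) and 17.0% of Glu-lim events (11.7 to 23.4%), against 0.998% of all windows. Events with it had a median log2(S/N) of 3.32 at N-lim, beside 2.50 without, and of 3.39 at Glu-lim, beside 2.72 without. It overlapped the oleate-responsive element in part, as 9 N-lim and 12 Glu-lim events held both.

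**Figure D5:**
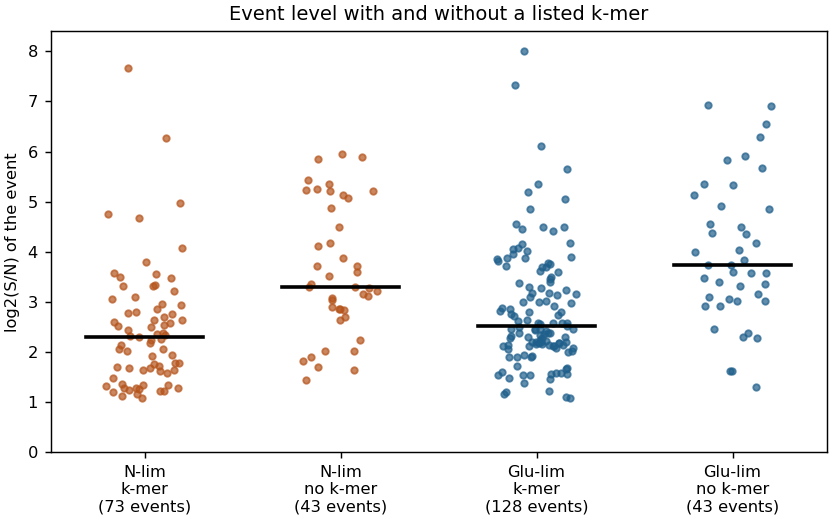
log2(S/N) of each distinct Oaf1 event (points) at N-lim and Glu-lim, split by whether a k-mer was listed; black lines are medians. Events without a k-mer have medians of 3.30 at N-lim and 3.74 at Glu-lim, above those with one (2.30 and 2.51), but the highest event at N-lim (7.66) and at Glu-lim (8.01) each has a k-mer listed. The k-mer of the 8.01 event (GLT1/UGA3) was listed without a strand, and its letters do not stand near that event.

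By class, the oleate-responsive element lay whole inside the window at 13 of 68 N-lim events and 14 of 67 Glu-lim events of shared genes (19.1%; 10.6 to 30.5%, and 20.9%; 11.9 to 32.6%). It did so at 6 of 49 N-lim-only events (12.2%; 4.63 to 24.8%) and 9 of 104 Glu-lim-only events (8.65%; 4.03 to 15.8%). These intervals overlap. Of the 26 genes with the element at an N-lim event, 20 were also listed at Glu-lim. Of the 32 genes with it at a Glu-lim event, 19 were also listed at N-lim. Among all genes, 59.8% of those listed at N-lim and 40% of those listed at Glu-lim were listed under both conditions. Genes that share an event are counted separately in these figures. Whether genes with the element were shared more often was not tested.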

How the data were processed

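The study made 2 ChIP-exo libraries of OAF1-TAP cells for each condition. The log2 values are the authors' deposited log2(S/N): reads were aligned to R64 with Bowtie2, trimmed, and called with GEM over pooled duplicates, and signal was divided by the noise of the replicates. The other deposited columns hold each event's place, k-mer, strand, and distance; the authors had linked events to genes within 1200 bp with BEDTools, the highest per gene being retained. SAMtools is also named in the submitters' notes; tool versions are not given in the sources used here. The deposited workbooks gave 20 columns for each of 5 TFs. Positions matched the R64 RefSeq reference: all 379 entries of the 289 members matched by name (22 were not) lay upstream of their gene start at the listed distance within 1 bp, and listed k-mers lay within 10 bp of 73 of 73 N-lim and 127 of 128 Glu-lim events.

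Conditions were compared by subtraction and counts, without tests. The members and the 22 gene lists were chosen with earlier results of these data known; 7 lists are the study's own and 15 come from general knowledge. Promoters were named by rule: the 8 highest means, the 6 largest differences in each direction, the 6 highest of each single-condition class, the 5 largest shifts at levels of 2 or above, up to 4 genes of each list by the higher value, and targets the paper names. Other genes were named after their values were seen. The alternatives are given in the closing section, and the code was tested on simulated data. The software was SciPy 1.17.1, NumPy 2.4.6, and pandas 2.3.3 under Python 3.11.15, with plots from matplotlib 3.10.9.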

Additional observations from a re-analysis of the deposited data

How the results depend on the processing

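12 results were recomputed under alternatives, which gave 79 values, and 61 of them stayed close to the value reported. Close meant within 1.5 times for counts and medians, with the sign kept, and within the interval for shares. Centring each condition on its median turned the median difference to 0.18 and gave 18 genes higher and 9 lower by 1 log2 unit; the turn follows from the centring. With events up to 600 bp only, 105 genes were listed at N-lim, 157 at Glu-lim, and 58 at both, 21 of them lower by 1 log2 unit. With each event counted for its nearest gene only, 60 genes were listed at both and 21 were lower. At 1.5 log2 units, 0 genes were higher and 14 lower. Events within 10 bp made up 34.7% of shared genes. CGGNNNTAA was found at 12.9% of N-lim and 6.43% of Glu-lim events within 10 bp, at 32.8% of N-lim events within 40 bp, and CCGNNNTNA in its place at 12.1% and 10.5%. Among genes with a k-mer under both conditions, an alternative chosen after seeing the data as was the merging of genes to promoters, 31.4% had the same one. Thresholds of 1.5 and 2 on log2(S/N) and protein-coding genes alone moved none of the 12 results past these limits. No paired analysis was possible because the tables used here hold 1 value for each pair of duplicates, and for the same reason no replicate could be left out.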

Other observations

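The Glu-lim k-mer of GLT1 and UGA3 was listed as CGGAG without a strand. These letters do not stand in the printed 96-bp window, which holds all of the 20 bp on each side of the event. VHR1 had the same entry at Glu-lim, while RGI2, on the same event, had none; these were the 3 entries with a k-mer but no strand, all at Glu-lim. None of the 49 N-lim-only events had a Glu-lim event within 200 bp, and none of the 104 Glu-lim-only events had an N-lim event within 200 bp. These counts follow largely from the class rule. An event so near would mostly be listed for the same gene, which would then count as shared. Nothing is read from them.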
